A study of Mus musculus with 12 samples.

Results

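The 9 genes described here, Thbs1, Thbs2, Postn, Sparc, Sparcl1, Ctgf, Cyr61, Nov and Fn1, encode matricellular proteins and the fibronectin that several of them bind. They were chosen by name from the 31053 genes of the count matrices, and the rule used no measured value, though the choice of this family was made with earlier results of these data known. Levels were read in the stromal vascular fraction (SVF), the cells that remain once collagenase-digested fat has been freed of floating adipocytes, of epididymal (eWAT) and inguinal (iWAT) white adipose tissue. The 12 droplet single-cell libraries came from male mice aged 12 weeks, 2 mice per group and depot, with 1 library each. The labels do not say whether eWAT and iWAT libraries came from the same mice. The WT-Veh group was C57BL/6J mice given vehicle, the ob/ob-Veh group was Lepob/Lepob mice given vehicle, and the ob/ob-Rosi group was Lepob/Lepob mice given rosiglitazone, a PPARγ agonist, at 30 mg/kg by gavage every morning and evening for 3 days. The vehicle was methylcellulose. Lepob is a germline mutation of leptin carried by every cell, so leptin loss and obesity cannot be told apart here, and no WT mice given rosiglitazone were analysed. Groups are called by their labels throughout.

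Matricellular proteins are secreted into the matrix but build little of it. They bind collagens, fibronectin, integrins and growth factors and change how a cell reads its surroundings. Thrombospondin-1, encoded by Thbs1, and thrombospondin-2, encoded by Thbs2, restrain new vessels, and thrombospondin-1 can release latent TGF-β. Periostin (Postn) is a TGF-β-induced partner of integrins and collagen, and SPARC binds collagen and restrains adipocyte differentiation in culture, while its paralog Sparcl1 is typical of vessel walls. Connective tissue growth factor (Ctgf), Cyr61 and Nov belong to the CCN family, of which Ctgf and Cyr61 are classical targets of YAP, TAZ and TEAD. Fibronectin (Fn1) is the scaffold on which cells lay down much of the rest. In adipose tissue these genes are best known from adipose progenitor cells (APCs), which in obesity can turn from making adipocytes to making matrix.

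In the GRCm38 build (GENCODE annotation) the thrombospondin genes lie at chr2:118111876-118127133 (Thbs1, plus strand) and chr17:14665500-14694235 (Thbs2, minus strand). Postn lies at chr3:54361109-54391037 (plus), Sparc at chr11:55394500-55423183 (minus) and Sparcl1 at chr5:104079111-104113733 (minus). The CCN genes lie at chr10:24595442-24598683 (Ctgf, now Ccn2, plus), chr3:145646976-145649981 (Cyr61, now Ccn1, minus) and chr15:54745702-54754039 (Nov, now Ccn3, plus), and Fn1 lies at chr1:71585520-71653200 (minus). RefSeq promoter windows (GRCm38.p6, 250 bases before to 50 after a gene's start) matched 4 of the 9 genes, namely Cyr61, Postn, Sparc and Thbs2, in 5 windows. The TEAD core GGAATG, searched on both strands and present in 14.7% of all 32851 such windows, occurred in that of Cyr61. The TATA box letters TATAAA and the SMAD letters CAGACA were matched on both strands too. TATAAA, present in 13.6%, occurred in those of Cyr61 and Postn. In that of Thbs2 it occurred only as the reverse complement, at -126 bases. CAGACA, present in 21.0%, occurred only as the reverse complement, in those of Sparc and Thbs2. The AP-1 letters TGACTCA, present in 5.2%, occurred in none, and no match overlapped another. The stretches around the TEAD letters and the start-proximal TATA letters are shown for Cyr61 and Postn. As the cells were clustered here, Cyr61 moved in opposite directions in the APC classes of eWAT and Postn the same way in both. Capitals mark the matched letters (for TEAD their reverse complement), each line reads 5′ to 3′ on the gene's own strand, and a match is a description of letters only. They come from chr3:145650071-145650100, chr3:145649993-145650022 and chr3:54361069-54361098, at -103, -25 and -26 bases from the start.
Cyr61, TEAD: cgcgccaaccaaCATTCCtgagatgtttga
Cyr61, TATA: ctaggcaggcatTATAAAgggcgggctccc
Postn, TATA: agcccagagctaTATAAActcagctctcca

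After filtering, 126095 cells were kept (57613 of eWAT and 68482 of iWAT), with 6472 to 17500 cells and 20132553 to 92475986 UMIs, that is counted molecules, per library. Cells were clustered without the listed genes and named from marker genes, which gave 17123 APC-like cells in eWAT (1671 to 4055 per library) and 19353 in iWAT (373 to 6640). Between any 2 libraries of a depot, 0.185% to 0.625% of the smaller library's barcodes were shared. The iWAT library WT-Veh 1 stood apart, with 63.8% of its cells in unnamed clusters and 2.19% (373 cells) APC-like. The mutated gene, Lep, keeps its transcript in ob/ob mice, and per 100 UMIs of the adipocyte gene Adipoq it reached 28.0 and 42.5 in eWAT WT-Veh, 3.95 and 16.2 in ob/ob-Veh, and 240 and 390 in ob/ob-Rosi, so it gives no clean check of the labels. In iWAT it reached 20.1 and 31.6, then 36.4 and 15.1, then 164 and 141. Lipid-associated macrophage-like (LAM-like) cells made up 23.3% and 23.9% of eWAT WT-Veh cells, 0.262% and 0.942% of ob/ob-Veh cells and 23.2% and 32.3% of ob/ob-Rosi cells, and in iWAT 1.68% and 4.45%, 0.361% and 0.0972%, and 7.16% and 4.22%. Macrophages that float off with adipocytes are not in this fraction. The labels were taken as given.

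Levels are given in CPM, the gene's UMIs scaled to all UMIs of a class in a library, and a 3′ count takes one molecule per transcript whatever its length. On average over libraries, APC-like cells held most of the UMIs of each of the 9 genes in eWAT and of 7 of them in iWAT. Averaged over the 6 eWAT libraries they held 85.88% of the Nov UMIs, 85.54% of Thbs2, 80.78% of Postn, 75.39% of Sparc, 71.47% of Sparcl1, 68.69% of Ctgf, 65.51% of Cyr61, 64.23% of Fn1 and 61.99% of Thbs1. In iWAT they held from 34.09% (Thbs1) and 48.64% (Sparcl1) to 86.36% (Nov), and endothelial (EC-like) cells held 40.36% of Sparcl1 and 35.2% of Ctgf. Single iWAT libraries had APC-like shares as low as 30.73% (Sparc), 37.64% (Cyr61), 38.73% (Postn), 43.04% (Ctgf) and 45.01% (Fn1). Cells of unnamed clusters held 19.18% of the iWAT Thbs1 UMIs on average, and up to 58.21% in 1 library. Fewer cells of a class and less RNA per cell cannot be told apart in such shares of a library, so the comparisons between groups were made on levels within a class.

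Among named classes, each gene had its own order, and cells of unnamed clusters were not ranked. Thbs1 was highest in monocyte and non-perivascular macrophage-like (NPVM-like) cells, which carry markers such as Ccr2 and Ly6c2, at 447 to 1974 CPM over the 6 eWAT libraries (median 1189). Below them by median, the ranges of mural-like (median 236), lymphatic EC-like (235), progenitor-like (205) and preadipocyte-like (190) cells overlapped, the last reaching 1175 in 1 library. The perivascular macrophage-like (PVM-like) class was at 5.02. In iWAT the NPVM-like median was 1095 over the 5 libraries with enough cells, followed by neutrophil-like cells at 443 over 4 libraries, with overlapping ranges, and preadipocyte-like cells were at 68.2. So among named classes the highest median Thbs1 level lay in a myeloid class and not in the stroma in both depots.

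The other genes were led by stromal or endothelial classes. Over the 6 eWAT libraries Postn had its highest median in preadipocyte-like cells (1101 CPM, 150 to 1670), with progenitor-like (847) and mural-like (614) cells overlapping them and EC-like cells at 193. That order did not hold under ob/ob-Veh, where preadipocyte-like cells (150 and 181) lay below mural-like (1036 and 486), progenitor-like (238 and 270) and EC-like cells (207 and 220). The other orders are also of medians over all 3 groups, and can differ within a group. Sparc ran from 8078 in eWAT preadipocyte-like cells through 4857 in progenitor-like, 3981 in EC-like, 2839 in mesothelial-like and 2706 in mural-like cells, and neighbours in that order overlapped. Sparcl1 was led by preadipocyte-like (1161) and EC-like (990) cells in eWAT and by EC-like (969) and preadipocyte-like (959) cells in iWAT, in both depots with overlapping ranges. Progenitor-like cells were lower, at 401 in eWAT and 26.9 in iWAT.

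The CCN genes split between classes. Nov, whose protein tends to restrain growth, was highest in progenitor-like cells in both depots, at a median of 106 CPM against 9.41 in preadipocyte-like cells of eWAT and 151 against 8.08 in iWAT, with no overlap between the ranges of the 2 APC-like classes. Ctgf was led by progenitor-like cells in eWAT (247) and by EC-like cells in iWAT (105), each overlapping the next class. Cyr61 had its highest eWAT median in EC-like cells (159), overlapping mural-like (110), preadipocyte-like (93.1) and progenitor-like (85.5) cells, but in iWAT progenitor-like cells led at 391 (372 to 538) with no overlap with EC-like cells at 122, while preadipocyte-like cells (118) reached 619 in 1 library. Among named classes Fn1 was highest in progenitor-like cells, at 4585 in eWAT (2905 to 4827) and 5040 in iWAT. In eWAT they lay above preadipocyte-like cells at 2210 (1788 to 2493) without overlap. Cells of unnamed clusters, which were not ranked, held on average 17.22% of the Fn1 UMIs in eWAT (7.62% to 29.61% by library). In iWAT they held 16.27% (5.06% to 38.81%). Thbs2 had medians of 192 in progenitor-like and 175 in preadipocyte-like cells of eWAT against 55.3 in mural-like and 15.9 in EC-like cells.

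**Figure D1:**
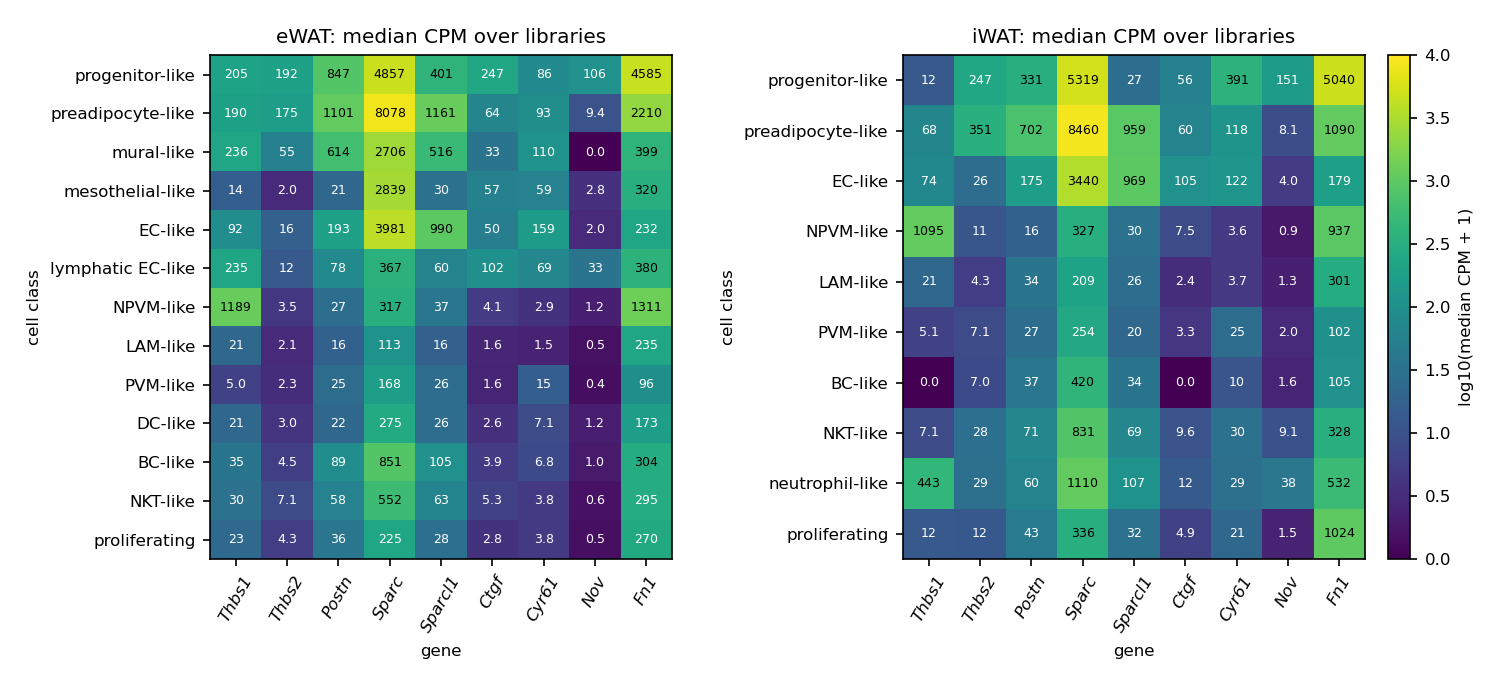
Median CPM of the 9 genes (columns) in each cell class (rows) of eWAT (left) and iWAT (right), over the libraries with at least 20 cells of the class; colour is log10(median CPM + 1) and the printed number is the median. Among the classes shown, Thbs1 peaks in NPVM-like cells (1189 in eWAT, 1095 in iWAT), while Sparc and Fn1 peak in the APC-like classes. Cells of unnamed clusters are not shown.

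Free RNA from broken stromal cells can reach any droplet, so each gene's level in another class was set against its level in APC-like cells of the same library, beside 9 stromal markers (Pdgfra, Dcn, Col1a1, Col3a1, Lum, Gsn, Serping1, Dpt and Mfap5). In eWAT PVM-like cells those markers stood at 0.888 to 6.86 per 100 of the APC-like level, and Postn at 2.18 to 4.64, above every marker of its own library in 2 of 6. Cyr61 stood at 6.32 to 18.0 per 100 there, above every marker in 6 of 6 libraries. In eWAT NPVM-like cells, where the markers reached 11.3 at most, Thbs1 stood at 126 to 1217 per 100 and Fn1 at 45.2 to 114, above every marker in 6 of 6 libraries, and Postn and Sparc exceeded them in 0 of 6. Of single NPVM-like cells, 50.93% held a Thbs1 UMI (33.05% after thinning each cell to 700 UMIs), against 3.321% (0.9258%) of PVM-like cells, at median depths of 1856 and 2883 UMIs. EC-like cells exceeded the markers in 6 of 6 eWAT libraries for Thbs1, Postn, Sparc, Sparcl1, Ctgf and Cyr61.

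**Figure D2:**
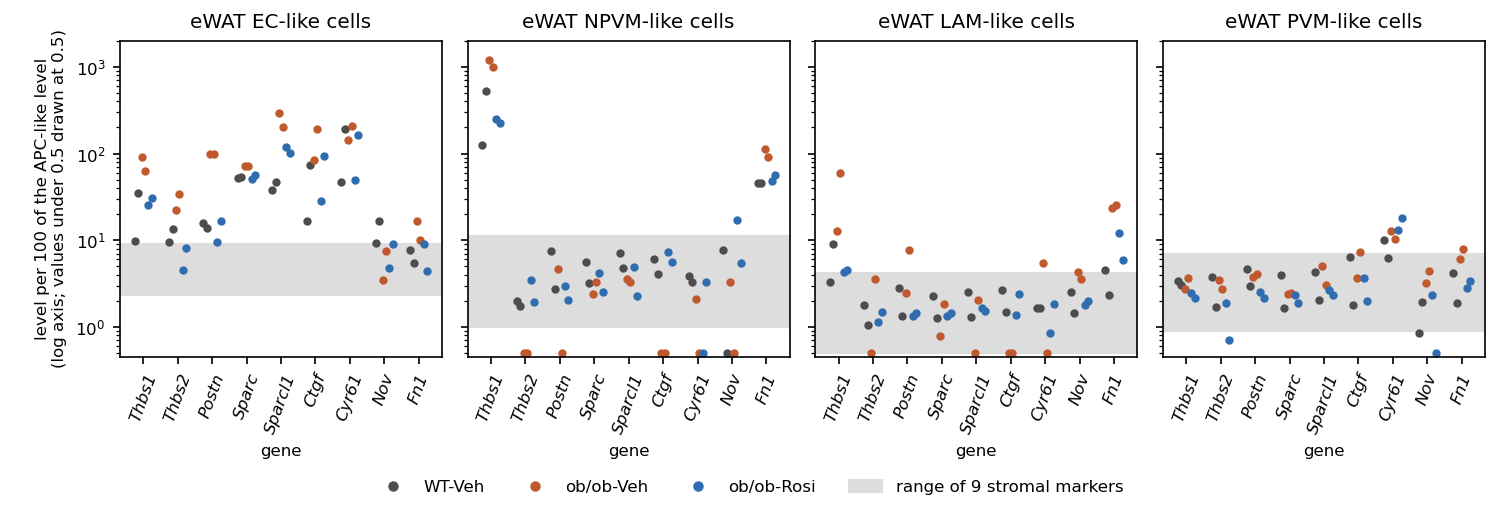
Level of each gene in 4 eWAT classes per 100 of its level in APC-like cells of the same library (log axis), 1 point per library, with values under 0.5 drawn at 0.5; the grey band spans the 9 stromal markers over the 6 libraries. Thbs1 and Fn1 in NPVM-like cells, Cyr61 in PVM-like cells and 6 of the 9 genes in EC-like cells lie above the markers of their own library.

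The first comparison asks how the matricellular genes of lean and obese tissue differ, and the second which of those levels differ after acute PPARγ activation. In eWAT, Postn, Thbs2 and Ctgf fell in both APC-like classes under ob/ob-Veh and rose in both under ob/ob-Rosi. Cyr61 moved in opposite directions in the 2 classes, which different clusters supplied in different groups. Fn1 passed in macrophage classes (NPVM-like and LAM-like) and lymphocyte classes (B cell-like, and T and NK cell-like), and in neither APC-like class. Of 75 gene-by-class tests in 10 eWAT classes, 25 passed for ob/ob-Veh against WT-Veh (5 higher, 20 lower), that is 33.3% against 3.67% of all tests over all genes. For ob/ob-Rosi against ob/ob-Veh 17 of 75 passed (14 higher, 3 lower), 22.7% against 3.36%. Both counts include classes other than the APC-like ones, where free RNA can carry a stromal change, so the passes are not separate results. Passing means a p of 0.05 or less after Benjamini-Hochberg adjustment over all genes of the class and a change of at least 1.1-fold in edgeR's quasi-likelihood test on UMI sums per library, and "rose" and "fell" are used only of such changes. The ob/ob-Veh libraries enter both comparisons, so the effects are not independent. Without ob/ob-Veh 1 the passes were 13 and 8 in place of 25 and 17, and the second count was 11 without ob/ob-Veh 2 and 10 without ob/ob-Rosi 2.

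The APC-like classes need a caution. In eWAT the preadipocyte-like share of APC-like cells was 88.6% and 83.5% in WT-Veh, 38.5% and 60.5% in ob/ob-Veh, and 83.1% and 92.1% in ob/ob-Rosi, and different clusters supplied the groups. Of the preadipocyte-like cells, 99% under ob/ob-Veh came from cluster 7, whose preadipocyte and progenitor scores were nearly tied (-0.589 and -0.711), whereas clusters 1 and 2 supplied 48.5% and 40.3% under WT-Veh and 35% and 54.9% under ob/ob-Rosi. Of the progenitor-like cells, 93.1% under WT-Veh and 92.7% under ob/ob-Rosi came from cluster 0, against 61.5% from cluster 4 and 36.4% from cluster 8 (scores -0.732 and -0.941) under ob/ob-Veh. The pooled APC-like values are therefore given first for each gene, and then those of the classes. Pooled, 5 of the 9 genes passed under ob/ob-Veh (1 higher, 4 lower; 7.26% of all genes) and 5 under ob/ob-Rosi (4 higher, 1 lower; 7.89%). In the same APC-like sums the macrophage markers summed to 1790 and 1295 CPM under WT-Veh, 199 and 414.4 under ob/ob-Veh, and 1497 and 1354 under ob/ob-Rosi, and the mural markers, Acta2 and Tagln among them, to 302 and 212, 97.5 and 136, and 237 and 430.4, while the mesothelial markers summed to 66.6 and 61.1, 198 and 216, and 72.2 and 49.1. The EC markers summed to 50.8 and 56.5, 12.4 and 42.7, and 61.5 and 81.2, lowest in both ob/ob-Veh libraries. The part of these 4 marker sets in the changes of the 9 genes was not tested.

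In preadipocyte-like cells 7 of 9 genes fell under ob/ob-Veh (lower in 5.22% of all genes) and 6 rose under ob/ob-Rosi (higher in 5.34%). In progenitor-like cells 3 fell and 1 rose under ob/ob-Veh (lower in 2.64% of all genes), and 3 rose and 1 fell under ob/ob-Rosi (higher in 2.49%).

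Of the thrombospondins, in the fit without a replicate block, Thbs2 changed in pooled APC-like cells and in both classes. In the same fit Thbs1 changed in preadipocyte-like cells under ob/ob-Veh only. Thbs2 in eWAT APC-like cells was at 186 and 192 CPM under WT-Veh, 34.2 and 48.8 under ob/ob-Veh, and 186 and 186 under ob/ob-Rosi. The 2 ob/ob-Veh libraries lay below all 4 others. It fell 4.79-fold (log2 fold change -2.26 ± 0.26 SE, adjusted p = 0.000969) and rose 4.69-fold under ob/ob-Rosi (2.23 ± 0.26, adjusted p = 0.001), also without any 1 library. Its preadipocyte-like levels were 173 and 190, then 14.8 and 26.4, then 177 and 187, a fall of 9.73-fold and a rise of 9.72-fold (adjusted p = 0.000237 and 0.000214). In progenitor-like cells the changes were -2.08 ± 0.319 and 1.88 ± 0.317 (adjusted p = 0.00294 and 0.00555), and the fall missed the threshold without WT-Veh 1 (-1.76, adjusted p = 0.0612).

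Thbs1 varied more than Thbs2 did between the mice of WT-Veh and between those of ob/ob-Rosi. Its APC-like levels were 1111 and 185 CPM under WT-Veh, 162 and 119 under ob/ob-Veh, and 469 and 199 under ob/ob-Rosi. The WT-Veh mice differed from each other by more than the second of them differed from ob/ob-Veh. Replicate 1 was the higher in each group, as it was for Ctgf, Cyr61, Nov and Fn1. Sparc, Sparcl1 and Thbs2 were higher in replicate 2 of each group. In the fit without a replicate block neither comparison of Thbs1 passed (-2.29 ± 0.717, adjusted p = 0.0855, and 1.26 ± 0.695, adjusted p = 0.315). Results with a block are given with the processing. In preadipocyte-like cells it fell from 1175 and 179 to 84.3 and 63.6 (-3.36 ± 0.761, adjusted p = 0.0217), but without WT-Veh 1 the change was -1.32 with an adjusted p of 0.18, and without ob/ob-Veh 1 or 2 the p was 0.0788 or 0.125. Under ob/ob-Rosi it was 505 and 201 (2.36 ± 0.731, adjusted p = 0.0724). NPVM-like cells, its main site per cell, had 1405 and 967, then 1974 and 1196, then 1182 and 447, groups that overlap and did not pass (adjusted p = 0.775 and 0.303).

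Periostin gave the largest change relative to its error among the pooled values. In eWAT APC-like cells Postn was at 1092 and 1590 CPM under WT-Veh, 211 and 224 under ob/ob-Veh, and 1079 and 1076 under ob/ob-Rosi. The ob/ob-Veh libraries lay far below the other 4, and the ob/ob-Rosi libraries just under the WT-Veh range. The fall was 6.36-fold (-2.67 ± 0.276, adjusted p = 0.000625) and the rise 5.12-fold (2.36 ± 0.273, adjusted p = 0.00098), both also without any 1 library. By class it fell 9.18-fold in preadipocyte-like cells (1113 and 1670 to 150 and 181, adjusted p = 0.000163) and 4.22-fold in progenitor-like cells (939 and 1216 to 238 and 270, adjusted p = 0.000679). It rose 7.28-fold to 1104 and 1097 and 3.38-fold to 948 and 755 under ob/ob-Rosi (adjusted p = 0.000236 and 0.00216), and all 4 changes passed without any 1 library.

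The SPARC family passed in preadipocyte-like and not in progenitor-like cells, a difference between classes that was not tested. Pooled, Sparc was at 8123 and 10399 CPM under WT-Veh, 4638 and 5104 under ob/ob-Veh, and 7043 and 13254 under ob/ob-Rosi. Both ob/ob-Veh libraries lay below the other 4, whose groups overlap, and the differences missed the threshold (-0.98 ± 0.317, adjusted p = 0.0958, and 1.11 ± 0.318, adjusted p = 0.0603). In preadipocyte-like cells it fell 2.29-fold (8584 and 11575 to 4908 and 4671, adjusted p = 0.0314) and rose 2.42-fold to 7572 and 13742 (adjusted p = 0.0234). Progenitor-like levels were 4827 and 4886, 4521 and 5573, and 4348 and 5803, overlapping groups with a change of 0.05 (adjusted p = 0.931) under ob/ob-Veh. Sparc calls depended on single libraries: the fall had an adjusted p of 0.109, 0.192, 0.0526 and 0.124 without ob/ob-Veh 1, ob/ob-Veh 2, WT-Veh 1 and WT-Veh 2, and the rise one of 0.147, 0.0854 and 0.157 without ob/ob-Rosi 2, ob/ob-Veh 1 and ob/ob-Veh 2. Both also missed with coarser clusters (Leiden resolution 0.5; 0.0862 and 0.0588), finer clusters (resolution 2; 0.18 and 0.13) and cells thinned to 700 UMIs (0.1 and 0.0553).

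Sparcl1, the paralog, was at 1203 and 1309 CPM under WT-Veh, 331 and 503 under ob/ob-Veh, and 927 and 1243 under ob/ob-Rosi in APC-like cells. It fell 3.18-fold (-1.67 ± 0.282, adjusted p = 0.00673) and rose 2.73-fold (1.45 ± 0.281, adjusted p = 0.012). The fall missed without ob/ob-Veh 1 (adjusted p = 0.0659) or WT-Veh 1 (0.055), and the rise without ob/ob-Rosi 2 (0.066) or ob/ob-Veh 1 (0.114). In preadipocyte-like cells it fell from 1316 and 1502 to 590 and 671 (adjusted p = 0.00895) and rose to 1028 and 1294 (adjusted p = 0.0264). There the fall missed without ob/ob-Veh 1 or 2 (adjusted p = 0.105 and 0.0987) and the rise without ob/ob-Rosi 2, ob/ob-Veh 1 or ob/ob-Veh 2 (0.0888, 0.219 and 0.209), with the finer clusters (0.0761) and with the listed genes among the clustering genes (0.0605). Progenitor-like levels of 397 and 405, 218 and 322, and 415 and 465 did not pass (adjusted p = 0.275 and 0.174).

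The 3 CCN genes each behaved differently in eWAT. Ctgf was at 302 and 81.5 CPM under WT-Veh, 28.3 and 21.3 under ob/ob-Veh, and 177 and 87.6 under ob/ob-Rosi in APC-like cells. It was lowest in both ob/ob-Veh libraries, with a fall of 8.18-fold (-3.03 ± 0.6, adjusted p = 0.0136) and a rise of 5.4-fold (2.43 ± 0.586, adjusted p = 0.0303). Without WT-Veh 1 the fall was -1.67 (adjusted p = 0.104), and the rise missed without ob/ob-Rosi 1, ob/ob-Rosi 2, ob/ob-Veh 1 or ob/ob-Veh 2 (adjusted p = 0.0863, 0.0872, 0.0527 and 0.0978). In progenitor-like cells, which had its highest median level over the 6 libraries, it fell 11.9-fold (564 and 212 to 33.6 and 31.7, adjusted p = 0.000585) and rose 9.42-fold to 331 and 282 (adjusted p = 0.00118), and both passed without any 1 library. In preadipocyte-like cells it went from 265 and 53.7 to 16.1 and 11.6 (adjusted p = 0.00841) and to 146 and 74.8 (adjusted p = 0.0164). The fall there missed without ob/ob-Veh 2 (0.0629), and the rise without ob/ob-Rosi 1, ob/ob-Veh 1 or ob/ob-Veh 2 (0.0505, 0.0605 and 0.111).

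Cyr61 shares its classical regulators with Ctgf, yet the pooled APC-like levels overlapped (234 and 101, 188 and 114, 126 and 74.6; adjusted p = 0.838 and 0.491). Different clusters supplied the 2 APC-like classes under ob/ob-Veh, as given above, and the part of that split was not tested. Within these classes Cyr61 changed in opposite directions. In preadipocyte-like cells it fell 7.94-fold, from 255 and 109 to 26.2 and 25 (-2.99 ± 0.444, adjusted p = 0.00282), also without any 1 library, and rose to 132 and 77.1 (2.15 ± 0.432, adjusted p = 0.012), which missed without ob/ob-Veh 1 or 2 (0.0694 and 0.0977), with coarser or finer clusters (0.0803 and 0.217) and with thinned cells (0.0902). In progenitor-like cells it rose 3.35-fold, from 76.7 and 65.6 to 258 and 210 (1.74 ± 0.375, adjusted p = 0.0199), and fell to 94.2 and 37.3 (-1.79 ± 0.375, adjusted p = 0.0167). The progenitor-like rise missed without WT-Veh 1 or 2 (0.159 and 0.253) and the fall without ob/ob-Rosi 2 (0.0669), and both missed with the finer clusters (0.0627 and 0.0604) and with the listed genes among the clustering genes (0.0714 and 0.0574). Cyr61 is an immediate-early gene, as are many genes of the tissue dissociation response such as Egr1 and Zfp36. Of the 22 on that list, 13 rose and 0 fell in progenitor-like cells under ob/ob-Veh (1.77% of all genes rose), 0 rose and 15 fell under ob/ob-Rosi (1.86% fell), and in preadipocyte-like cells 2 rose and 1 fell and then 1 rose and 2 fell (3.42% and 5.22% of all genes, then 5.34% and 3.52%). Their summed level in APC-like cells was 10254 and 12631 CPM under WT-Veh, 22372 and 18915 under ob/ob-Veh, and 11636 and 8355 under ob/ob-Rosi, and their part in the Cyr61 result was not tested.

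Nov ran the other way from Ctgf when APC-like cells were pooled. It was at 23.7 and 10.5 CPM under WT-Veh, 121 and 95.4 under ob/ob-Veh, and 25.3 and 11.1 under ob/ob-Rosi. Both ob/ob-Veh libraries lay above the other 4, a rise of 6.08-fold (2.6 ± 0.478, adjusted p = 0.00967) and a fall of 5.9-fold (-2.56 ± 0.473, adjusted p = 0.00939). They missed without WT-Veh 2 (0.0745) and without ob/ob-Rosi 2 (0.107) respectively. The progenitor-like share of the pooled cells differed between groups, as given above, and its part was not tested. Within progenitor-like cells the levels were 119 and 45.3, 169 and 182, and 92.5 and 65.3 (1.13, adjusted p = 0.149, and -1.13, adjusted p = 0.156), and within preadipocyte-like cells 10.4 and 3.12, 8.46 and 14.7, and 12.1 and 7.59, so it did not pass within either class, although both ob/ob-Veh libraries lay above the other 4 in progenitor-like cells.

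**Figure D3:**
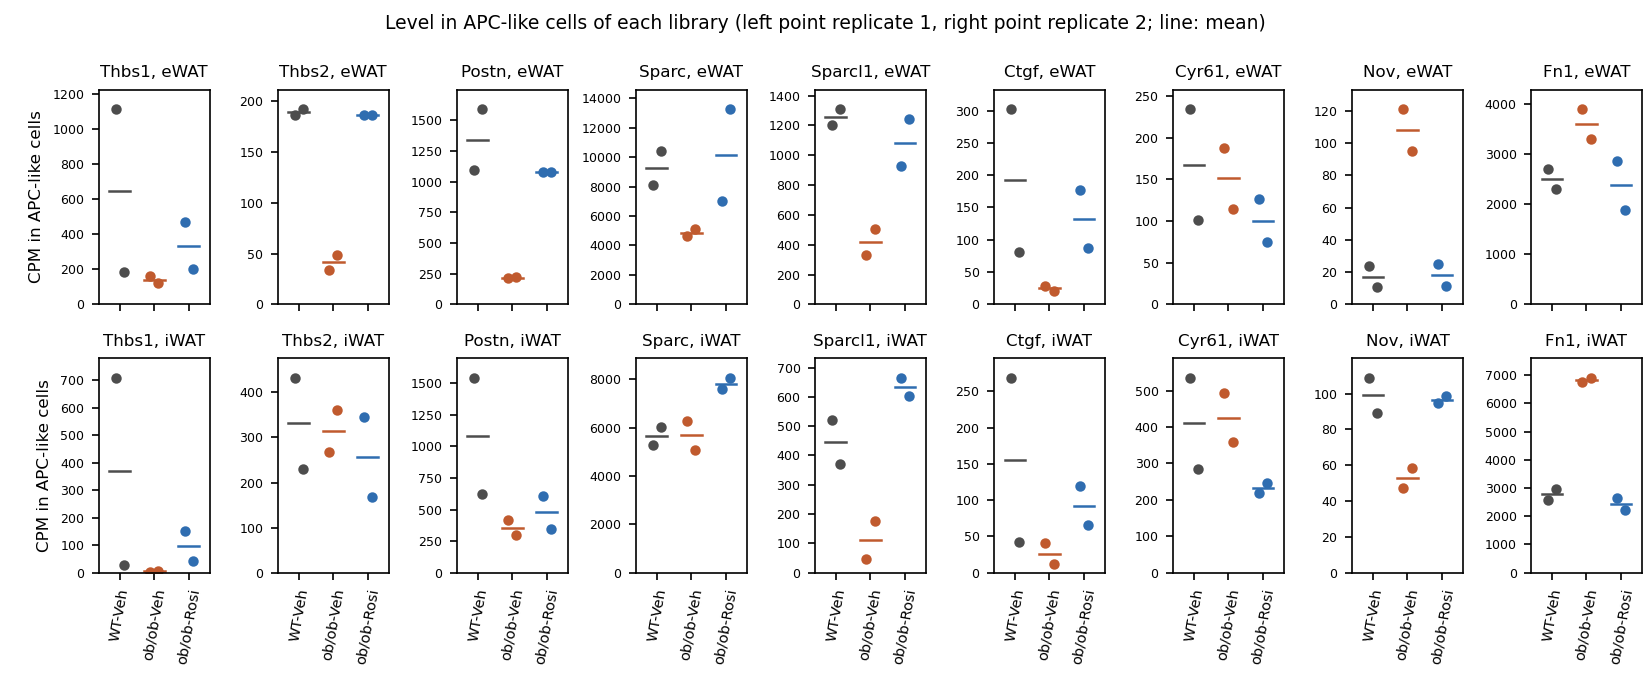
CPM of each gene in pooled APC-like cells of eWAT (top) and iWAT (bottom), 1 point per library and a line at the group mean, on axes from 0. In eWAT both ob/ob-Veh points of Thbs2, Postn, Sparcl1 and Ctgf lie below the other 4 and those of Nov above them, while in iWAT Fn1 is highest in both ob/ob-Veh libraries.

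**Figure D4:**
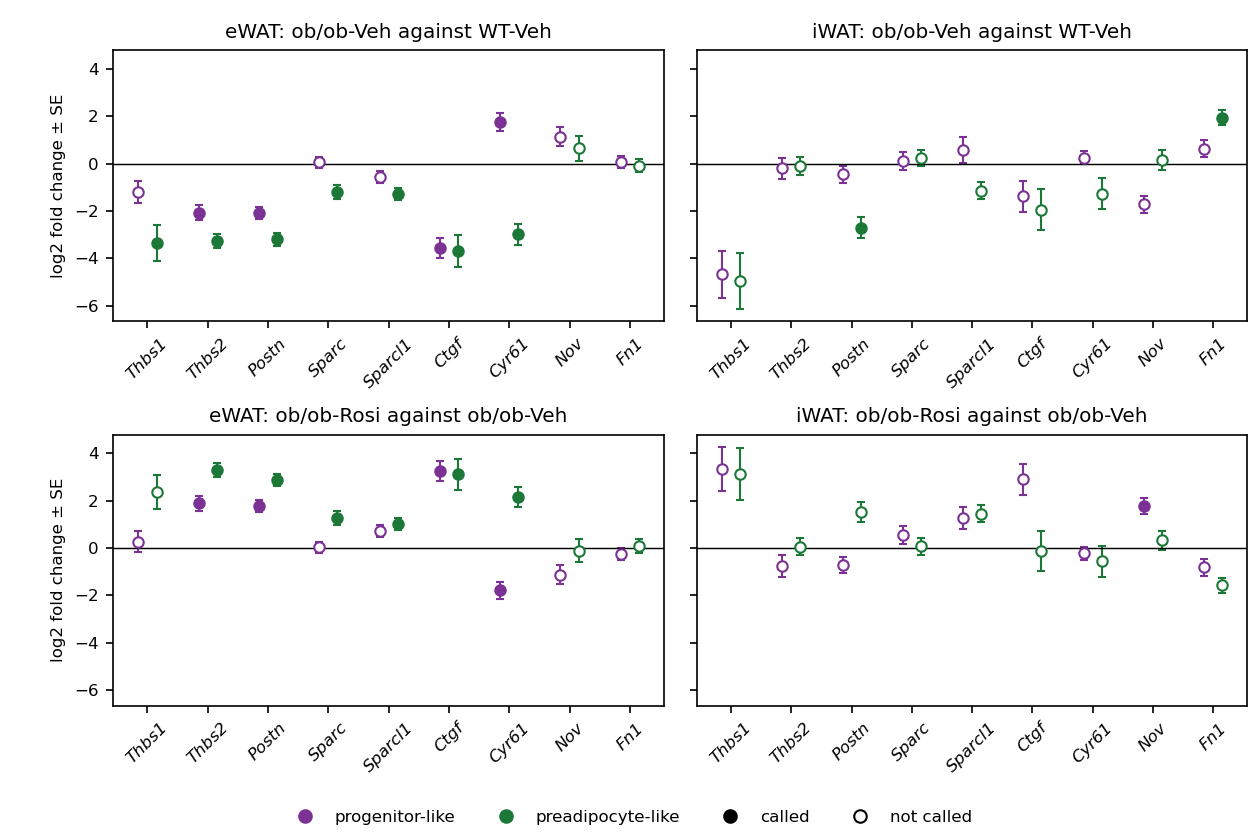
Log2 fold change with its SE for each gene in progenitor-like (purple) and preadipocyte-like (green) cells, for eWAT (left) and iWAT (right) and both comparisons; filled points passed the test. In eWAT preadipocyte-like cells 7 of 9 genes fell under ob/ob-Veh and 6 rose under ob/ob-Rosi, and Cyr61 has opposite signs in the 2 classes.

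Changes in the other eWAT classes are given beside the stromal markers, since free RNA can carry them. In NPVM-like cells Postn (-3.26, adjusted p = 0.0206), Sparcl1 (-2.59, 0.0172) and Sparc (-1.65, 0.0202) fell, and each exceeded every stromal marker in 0 of 6 libraries. In PVM-like cells Postn fell from 50.7 and 46.5 to 8.01 and 9.07 CPM (-2.61 ± 0.228, adjusted p = 0.000612) and rose under ob/ob-Rosi to 27.3 and 23.4 (1.69 ± 0.236, 0.00899), Sparcl1 fell (-1.43, 0.0418), and Nov rose from 0.204 and 0.207 to 3.86 and 4.2 (4.04, 0.0234). Postn, Sparcl1 and Nov exceeded every marker there in 2, 1 and 1 of 6 libraries. Each of these genes had the same direction in the APC-like cells of the same libraries, which hold most of their UMIs, and the part of free RNA was not tested.

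Lymphocyte and mesothelial classes showed the same directions. Postn fell in mesothelial-like cells (-2.24 ± 0.477, adjusted p = 0.0288), in B cell-like (BC-like) cells (-3.85, 0.00312) and in T and NK cell-like (NKT-like) cells (-2.25, 0.00369), where Ctgf fell too (-3.48, 0.0227). Under ob/ob-Rosi Postn rose in BC-like (4.08, 0.0049) and NKT-like (1.96, 0.0116) cells. Sparcl1 in BC-like cells fell from 94.1 and 116 to 7.66 and 17.5 CPM (-3.27, 0.00427) and rose to 232 and 336 (4.52 ± 0.54, 0.000301), and Sparc rose in NPVM-like cells (1.33, 0.0458). Postn exceeded every stromal marker in 0 of 6 libraries in mesothelial-like, BC-like and NKT-like cells, and Sparcl1 in BC-like and Ctgf in NKT-like cells in 1 of 6 each.

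Of these changes in the smaller classes, the fall of Postn in PVM-like cells and the rise of Sparcl1 in BC-like cells passed without any 1 library, and each other missed without at least 1. Without WT-Veh 1 the adjusted p was 0.225 for Postn, 0.117 for Sparcl1 and 0.208 for Sparc in NPVM-like cells, 0.247 for Sparcl1 and 0.183 for Nov in PVM-like cells, 0.209 for Postn in mesothelial-like and 0.18 for Ctgf in NKT-like cells. Without WT-Veh 2 it was 0.105 for Postn in mesothelial-like and 0.14 for Nov in PVM-like cells. Without ob/ob-Veh 1 the falls and rises of Postn had 0.0509 and 0.068 in BC-like and 0.0602 and 0.145 in NKT-like cells, and Postn had 0.138 in mesothelial-like cells and 0.0869 for its rise in PVM-like cells. The same omission gave Sparcl1 0.284 in NPVM-like, 0.191 in PVM-like and 0.0689 in BC-like cells, Sparc 0.274 and 0.387 in NPVM-like cells, Nov 0.148 and Ctgf 0.0859. Without ob/ob-Veh 2 Postn had 0.0552 and 0.12 in NKT-like and 0.0656 for its rise in PVM-like cells, Sparcl1 0.182 and Nov 0.126 in PVM-like cells, Sparc 0.08 for its rise and Ctgf 0.161. Without ob/ob-Rosi 2 the rises had 0.314 (Postn, BC-like), 0.0708 (Postn, NKT-like) and 0.187 (Sparc, NPVM-like). With doublets removed the fall of Sparcl1 in PVM-like cells had 0.0597 and the rise of Sparc in NPVM-like cells 0.0517.

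EC-like cells of eWAT had 8 of the 9 genes tested and 0 passed by edgeR in either comparison (3.98% and 3.19% of all genes did), against 3 and 4 at an unadjusted p under 0.05 and 1 and 1 by DESeq2, Sparcl1 under ob/ob-Veh and Cyr61 under ob/ob-Rosi. Of all 10839 genes, 1151 were higher and 1261 lower at that unadjusted p under ob/ob-Veh, and 1092 higher and 951 lower under ob/ob-Rosi. Sparcl1 there was at 458 and 623 CPM under WT-Veh, 966 and 1014 under ob/ob-Veh, and 1106 and 1267 under ob/ob-Rosi. Both ob/ob groups lay above WT-Veh without overlap, a difference of 0.78 ± 0.243 for ob/ob-Veh that missed the threshold (adjusted p = 0.0906). Cyr61 was at 109 and 194, 272 and 236, and 61.8 and 123 (-1.37 ± 0.348 under ob/ob-Rosi, adjusted p = 0.0559), and Postn at 175 and 218, 207 and 220, and 102 and 179.

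Fn1 rose in NPVM-like and LAM-like cells of eWAT. In pooled APC-like cells it was at 2706 and 2301 CPM under WT-Veh, 3905 and 3304 under ob/ob-Veh, and 2867 and 1894 under ob/ob-Rosi, with both ob/ob-Veh libraries above the other 4 but short of the threshold (0.47 ± 0.3, adjusted p = 0.396, and -0.57 ± 0.3, adjusted p = 0.297). Progenitor-like cells had 4224 and 4707 under WT-Veh, 4609 and 4562 under ob/ob-Veh, and 4827 and 2905 under ob/ob-Rosi, and neither they nor preadipocyte-like cells passed under ob/ob-Veh (adjusted p = 0.949 and 0.868). In NPVM-like cells Fn1 was at 1224 and 1053, then 4452 and 3033, then 1398 and 1062, above every stromal marker in all 6 libraries. It rose 3.07-fold (1.62 ± 0.3, adjusted p = 0.00941) and fell 2.85-fold (-1.51 ± 0.298, adjusted p = 0.00937). Without ob/ob-Veh 1 the adjusted p was 0.298 and 0.309, without WT-Veh 2 the rise had 0.0686, and without ob/ob-Rosi 2 the fall had 0.0612, and with thinned cells they had 0.141 and 0.103. In LAM-like cells it went from 122 and 54.2 to 929 and 839 (3.15 ± 0.45, adjusted p = 0.00217), which missed without ob/ob-Veh 1 (0.0533), and was 349 and 113 under ob/ob-Rosi (-1.75, adjusted p = 0.054). LAM-like cells numbered as few as 24 in a library, under ob/ob-Veh. Fn1 also rose in BC-like cells (2.49, adjusted p = 0.0433, and 0.0655, 0.241 or 0.149 without ob/ob-Rosi 1, ob/ob-Veh 2 or WT-Veh 2 and 0.0545 without doublets) and fell in NKT-like cells under ob/ob-Rosi (-1.83, 0.0264, and 0.19, 0.119 or 0.147 without ob/ob-Rosi 2, ob/ob-Veh 1 or 2 and 0.0911 without doublets). It exceeded every stromal marker in 5 of 6 libraries in LAM-like, 2 of 6 in BC-like and 3 of 6 in NKT-like cells. PVM-like cells had Fn1 at 113 and 43.0 CPM, then 239 and 259, then 80.1 and 63.7. EC-like cells had it at 206 and 127, then 647 and 335, then 257 and 83.4. Both ob/ob-Veh libraries lay above the other 4 in each of these classes, but neither class passed. Fn1 exceeded every marker in 3 of 6 libraries of each.

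**Figure D5:**
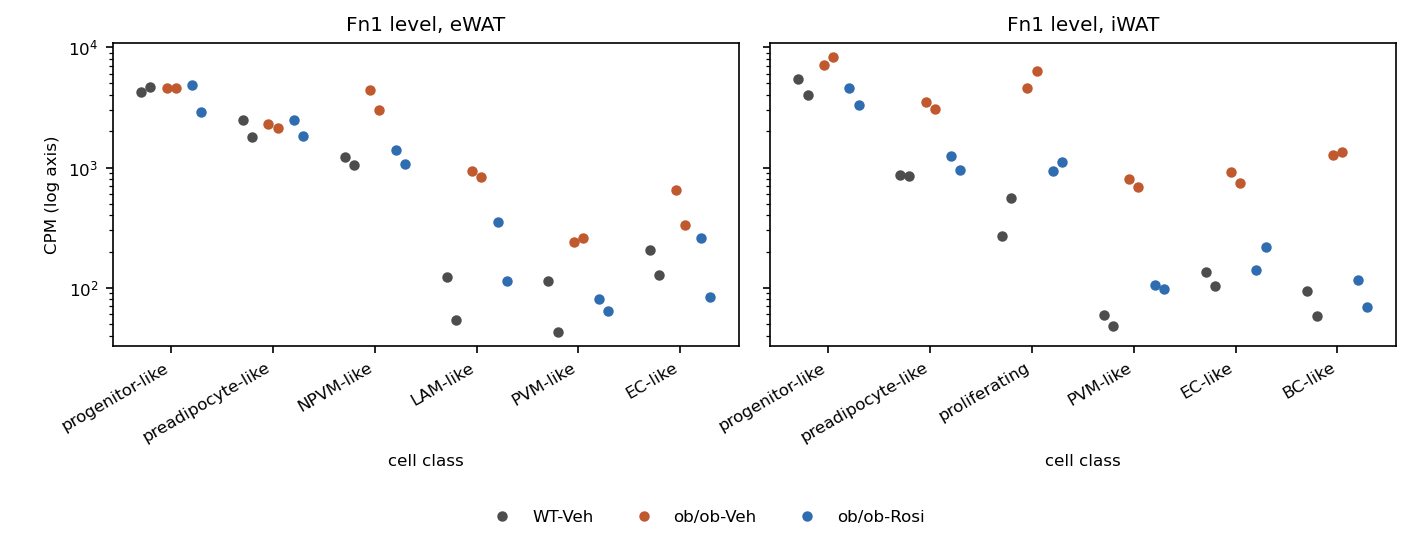
Fn1 CPM (log axis) by class and library in eWAT (left) and iWAT (right), with the 3 groups in colour. The ob/ob-Veh points lie above the others in NPVM-like, LAM-like, PVM-like and EC-like cells of eWAT and in all 6 iWAT classes shown. Of these, PVM-like and EC-like cells of eWAT and progenitor-like cells of iWAT did not pass the test.

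The iWAT libraries gave fewer calls. Counts were also simulated with the spread of these same libraries, in progenitor-like, preadipocyte-like, PVM-like and EC-like cells only. There a planted 4-fold change was recovered less often in iWAT, and its part in the number of calls was not tested. By class it was found for 44% to 74.5% of the changed genes, against 84.5% to 90.5% in eWAT. Unchanged genes called numbered 5 to 26 by class in iWAT and 10 to 25 in eWAT. Of 51 gene-by-class tests in 7 classes, 9 passed for ob/ob-Veh against WT-Veh (8 higher, 1 lower; 17.6% against 3.46% of all tests) and 5 for ob/ob-Rosi against ob/ob-Veh (1 higher, 4 lower; 9.8% against 4.46%). These counts hung on single libraries: the first was 2 without ob/ob-Veh 1, 4 without ob/ob-Veh 2, 15 without either ob/ob-Rosi library, 17 without WT-Veh 1 and 19 without WT-Veh 2, and the second was 0 without either ob/ob-Veh library, 2 without ob/ob-Rosi 1, 1 without ob/ob-Rosi 2 and 20 without either WT-Veh library. In pooled APC-like cells 0 of 9 genes passed by edgeR in either comparison, where 0.385% and 0.674% of all genes did. At an unadjusted p under 0.05 there were 6 and 4 of the 9, and DESeq2 called 5 and 3. Of all 13509 genes, 931 were higher and 1294 lower at that unadjusted p under ob/ob-Veh, and 1674 higher and 1205 lower under ob/ob-Rosi. Preadipocyte-like cells held 2 passes under ob/ob-Veh (0.721% of all genes) and progenitor-like cells 1 under ob/ob-Rosi (2.9%). As in eWAT, clusters differed by group: cluster 7 supplied 86.6% of ob/ob-Veh preadipocyte-like cells, and clusters 6 and 8 supplied 33.4% and 65.1% of the progenitor-like cells, while clusters 2, 1 and 0 (WT-Veh) or 2 and 0 (ob/ob-Rosi) and clusters 4 and 9 led the other groups.

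Fn1 carried most of the iWAT calls. In preadipocyte-like cells it was at 861 and 853 CPM under WT-Veh, 3520 and 3044 under ob/ob-Veh, and 1235 and 945 under ob/ob-Rosi. The ob/ob-Veh libraries lay above the other 4, a rise of 3.83-fold (1.94 ± 0.326, adjusted p = 0.0418), and the fall under ob/ob-Rosi missed the threshold (-1.57, adjusted p = 0.0539). Without ob/ob-Veh 1 or 2 the adjusted p of the rise was 0.399 or 0.193. Progenitor-like levels were 5465 and 4018, 7187 and 8306, and 4615 and 3316, none of which passed.

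Fn1 also rose in EC-like cells, from 135 and 103 to 920 and 738 (2.51 ± 0.341, adjusted p = 0.0187, and 0.302 or 0.25 without ob/ob-Veh 1 or 2 and 0.0645 with thinned cells). It exceeded every stromal marker there in 2 of 6 libraries, and the marker medians were 5.56 and 2.84 per 100 of the APC-like level under WT-Veh, 9.72 and 7.63 under ob/ob-Veh, and 2.87 and 4.94 under ob/ob-Rosi, whose part was not tested. Fn1 rose in proliferating cells, where it exceeded every marker in 6 of 6 libraries, from 267 and 553 to 4593 and 6297 (3.28 ± 0.462, adjusted p = 0.00163) and fell to 934 and 1114 (-1.95 ± 0.436, adjusted p = 0.0133). The rise passed without any 1 library, and the fall had an adjusted p of 0.0951, 0.0683, 0.0648 and 0.0732 without ob/ob-Rosi 1, ob/ob-Rosi 2, ob/ob-Veh 1 and ob/ob-Veh 2. The proliferating class held as few as 20 cells in a library and can mix lineages.

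In PVM-like cells of iWAT 4 of 9 genes rose under ob/ob-Veh, where 3.64% of all genes did, and stromal markers moved with them. Fn1 went from 59.5 and 48.4 to 803 and 683 (3.63 ± 0.289, adjusted p = 0.00156) and fell to 106 and 96.8 (-2.7 ± 0.276, adjusted p = 0.00591). Sparc rose 3.36-fold (adjusted p = 0.00975), Thbs2 5.31-fold (0.0169) and Nov 6.01-fold (0.023), and Nov fell under ob/ob-Rosi (-1.86, 0.0347). The 9 stromal markers stood there at a median of 1.22 and 1.52 per 100 of the APC-like level under WT-Veh, 8.59 and 9.57 under ob/ob-Veh, and 2.95 and 3.05 under ob/ob-Rosi. Fn1 exceeded every marker in 1 of 6 libraries, and the markers' part in these calls was not tested. Without ob/ob-Veh 1 or 2 the adjusted p was 0.112 or 0.0699 for Sparc, 0.0975 or 0.126 for Thbs2, 0.127 or 0.153 for Nov, and 0.0826 or 0.0508 for the fall of Fn1. The fall of Fn1 also missed without ob/ob-Rosi 2 (0.0621), the rise of Nov without WT-Veh 2 (0.0938), and the fall of Nov without each of the 4 libraries it compares (0.111 to 0.232). In BC-like cells Fn1 rose 14.0-fold (94.7 and 58.8 to 1267 and 1356, adjusted p = 0.00193, and 0.0623 without ob/ob-Veh 1) and fell to 115 and 69.3 (adjusted p = 0.0322, and 0.0741, 0.321 or 0.0594 without ob/ob-Rosi 2, ob/ob-Veh 1 or 2), and there the marker medians were 3.55 and 1.6, 13.3 and 14.7, and 4.01 and 7.71.

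Periostin was the 1 gene that fell under ob/ob-Veh in iWAT. In preadipocyte-like cells Postn went from 2069 and 1204 CPM under WT-Veh to 298 and 200 under ob/ob-Veh, a fall of 6.56-fold (-2.71 ± 0.441, adjusted p = 0.0369). Under ob/ob-Rosi it was 876 and 528, between the other groups (1.52, adjusted p = 0.0977). Without ob/ob-Veh 1 or 2 the adjusted p of the fall was 0.369 or 0.28. In progenitor-like cells Postn was at 674 and 333, 432 and 330, and 232 and 189, where WT-Veh and ob/ob-Veh overlap.

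Nov in iWAT progenitor-like cells ran against its eWAT course. It was at 276 and 129 CPM under WT-Veh, 52.6 and 75.8 under ob/ob-Veh, and 218 and 173 under ob/ob-Rosi. The ob/ob-Veh libraries were lowest, a difference of -1.72 ± 0.352 that missed the threshold (adjusted p = 0.0572), and the rise under ob/ob-Rosi passed (1.77 ± 0.347, adjusted p = 0.0341). That rise missed without ob/ob-Rosi 1 (0.068), ob/ob-Rosi 2 (0.0869), ob/ob-Veh 1 (0.366) or ob/ob-Veh 2 (0.229), and when counts were scaled by library size only (0.0544).

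The remaining genes of pooled iWAT APC-like cells did not pass by edgeR. Thbs1 was at 709 and 28.7 CPM under WT-Veh, 3.74 and 7.51 under ob/ob-Veh, and 150 and 41.8 under ob/ob-Rosi, both ob/ob-Veh libraries being lowest (-6.07 ± 1.42, adjusted p = 0.121). Thbs2 was at 433 and 231, 267 and 362, and 346 and 169, overlapping in all groups. Sparcl1 was at 521 and 372, 45.4 and 177, and 666 and 604, without overlap (-2.1, adjusted p = 0.142, and 2.64, adjusted p = 0.0655). The preadipocyte-like share of these APC-like cells was 63.5% and 34.0% in WT-Veh, 13.1% and 28.3% in ob/ob-Veh, and 65.3% and 50.2% in ob/ob-Rosi, and preadipocyte-like cells had the higher median of both Thbs1 (68.2 against 12.1 CPM in progenitor-like cells) and Sparcl1 (959 against 26.9). EC markers in the same sums came to 122 and 93.4 CPM, 14.1 and 56.9, and 171 and 145. Both the share and the EC markers were lowest in the 2 ob/ob-Veh libraries, as Thbs1 and Sparcl1 were, and their part in these pooled values was not tested. Ctgf was at 269 and 42.0, 40.3 and 11.6, and 119 and 65.6, and Cyr61 at 536 and 284, 493 and 358, and 218 and 246. Sparc was at 5284 and 6014, 6288 and 5067, and 7579 and 8073. In EC-like cells Sparcl1 was at 264 and 461, 955 and 984, and 1243 and 1253 (1.13 ± 0.37 under ob/ob-Veh, adjusted p = 0.14), the same order as in eWAT.

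Without the iWAT library WT-Veh 1, which stood apart, 17 tests passed under ob/ob-Veh and 20 under ob/ob-Rosi, including all 9 and all 5 of the calls above, 7 and 14 tests that had not passed, and 1 and 1 of Nov in proliferating cells that had not been tested. Thbs1 in progenitor-like cells then fell (-2.68 ± 0.526, adjusted p = 0.00703) and rose (3.33 ± 0.471, adjusted p = 0.000408). Postn fell in EC-like cells (-2.70, adjusted p = 0.000181), Sparcl1 fell and rose in preadipocyte-like cells (-1.40, adjusted p = 0.0471, and 1.51, 0.0189), and Ctgf rose in progenitor-like cells under ob/ob-Rosi (2.88, adjusted p = 0.00207). In that fit WT-Veh is a single library assumed to vary like the other groups.

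Whether the depots responded differently was tested directly, as the eWAT effect minus the iWAT effect in 1 fit over all 12 libraries. That fit took all libraries as independent, though eWAT and iWAT libraries may share mice, which the labels do not say. Of 50 tests, 5 differed for ob/ob-Veh against WT-Veh (1 higher, 4 lower; 0.572% of all tests) and 3 for ob/ob-Rosi against ob/ob-Veh (2 higher, 1 lower; 0.284%). Thbs2 in preadipocyte-like cells fell and rose in eWAT, but was at 401 and 307, 271 and 394, and 430 and 245 CPM in iWAT, and the effects differed by -3.13 ± 0.47 (adjusted p = 0.011) and 3.15 ± 0.469 (adjusted p = 0.0176). Nov in progenitor-like cells differed by 2.87 ± 0.585 (adjusted p = 0.0333) and -2.91 ± 0.579 (adjusted p = 0.0287), being higher under ob/ob-Veh in eWAT and lower in iWAT. Postn in progenitor-like cells differed under ob/ob-Rosi by 2.45 ± 0.449 (adjusted p = 0.0181), with 948 and 755 against 238 and 270 in eWAT and 232 and 189 against 432 and 330 in iWAT. The other 3 differences were of Postn (-2.65), Sparc (-2.94) and Thbs2 (-4.53) in PVM-like cells under ob/ob-Veh, where Postn, Sparc and Thbs2 exceeded every stromal marker in 2, 0 and 0 of 6 eWAT libraries and in 4, 1 and 0 of 6 iWAT libraries. Each of the 8 differences missed the threshold when any of at least 3 of the 12 libraries was left out.

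Against WT-Veh, ob/ob-Rosi libraries differed in 0 of 75 eWAT tests and 0 of 51 iWAT tests by edgeR, where 0.0355% and 0.0227% of all tests passed. At an unadjusted p under 0.05 there were 3 higher and 7 lower in eWAT and 13 higher and 5 lower in iWAT, and DESeq2 called 1 and 2. At that cut the share of all genes differed by class. In eWAT it ran from 64 higher and 73 lower of 8410 (dendritic cell-like) to 389 and 418 of 10839 (EC-like). In iWAT it ran from 104 and 17 of 6906 (NKT-like) to 415 and 491 of 12540 (EC-like). In eWAT APC-like cells the change was -0.31 ± 0.26 for Postn, -0.03 ± 0.249 for Thbs2 and 0.04 ± 0.47 for Nov, and a p above the threshold does not show that the levels are equal.

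Other matricellular genes were kept on a list of 22. Of 16 tested in eWAT preadipocyte-like cells 2 rose and 8 fell under ob/ob-Veh (median log2 fold change -0.91, against 5.22% of all genes lower and a median of 0.01), and 8 rose and 1 fell under ob/ob-Rosi (0.8, higher in 5.34% of all genes). In progenitor-like cells 0 of 16 rose and 6 fell (-0.88, lower in 2.64% of all genes), then 7 rose and 0 fell (0.94, higher in 2.49%). Tnc, which encodes tenascin-C, was at 72.1 and 32.6 CPM under WT-Veh, 0.521 and 0.116 under ob/ob-Veh, and 55.4 and 51.4 under ob/ob-Rosi in preadipocyte-like cells (7.49 ± 0.629 under ob/ob-Rosi, adjusted p = 0.000157). Mgp, which encodes the calcification inhibitor matrix Gla protein, was at 8571 and 8107, 352 and 585, and 9683 and 12701 in progenitor-like cells (4.6 ± 0.285, adjusted p = 6.92e-06). In iWAT the same list gave 2 higher and 0 lower of 14 in progenitor-like cells under ob/ob-Veh (0.669% and 0.543% of all genes) and 2 higher and 3 lower under ob/ob-Rosi (1.63% and 1.27%), with 0 (7 at an unadjusted p under 0.05) and 1 passing of 18 in preadipocyte-like cells. Of all 11793 genes there, 1019 were higher and 1175 lower at that unadjusted p under ob/ob-Veh. Genes of the list that passed in iWAT included Smoc2, a SPARC-family gene (39.1 and 28.2 to 198 and 223 CPM under ob/ob-Veh, 2.6 ± 0.276, adjusted p = 0.00741).

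TGF-β response genes other than the members made up a list of 17, of which 0 rose and 11 fell in eWAT preadipocyte-like cells under ob/ob-Veh (median -1.09, lower in 5.22% of all genes) and 11 rose and 0 fell under ob/ob-Rosi (1.33, higher in 5.34%). In progenitor-like cells 0 rose and 6 fell, then 6 rose and 0 fell (2.64% and 2.49% of all genes). Tagln, a smooth muscle actin-binding protein, fell from 182 and 97.2 to 2.34 and 3.01 CPM (-5.85 ± 0.489, adjusted p = 0.000163) and Timp1, a protease inhibitor, rose from 25.1 and 22.7 to 520 and 1013 (5.13 ± 0.463, adjusted p = 0.000214) in preadipocyte-like cells. Ltbp2, a latent TGF-β-binding protein family member, fell in progenitor-like cells from 129 and 166 to 4.29 and 10.2 (-4.41 ± 0.372, adjusted p = 7.44e-05). In iWAT, where 0.356% to 1.63% of all genes passed in one direction, 0 of 16 tested genes of this list passed by edgeR in either APC-like class and either comparison (median -0.52 and 0.43 in progenitor-like cells, with 4 and 2 at an unadjusted p under 0.05, and -0.37 and 0.44 in preadipocyte-like cells, with 4 and 5). Of all 12708 progenitor-like genes, 918 were higher and 1155 lower at that unadjusted p, then 1669 and 1281 under ob/ob-Rosi. Of all 11793 preadipocyte-like genes, 1019 and 1175, then 1335 and 1176, were.

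YAP, TAZ and TEAD targets other than the members made up a list of 18. In eWAT preadipocyte-like cells 2 of 17 rose and 1 fell under ob/ob-Veh, and in progenitor-like cells 2 of 14 rose and 0 fell, with 1 rising and 3 falling and then 0 rising and 3 falling under ob/ob-Rosi. Over all genes 3.42% rose and 5.22% fell in preadipocyte-like and 1.77% and 2.64% in progenitor-like cells under ob/ob-Veh, and 5.34% and 3.52% and then 2.49% and 1.86% under ob/ob-Rosi, shares to be read beside the receptor counts too. Amotl2, which binds YAP, was at 117 and 113, 175 and 229, and 64.5 and 50.6 CPM in preadipocyte-like cells (-1.68 ± 0.258 under ob/ob-Rosi, adjusted p = 0.00315), and Nt5e, an ectonucleotidase, rose from 0.575 and 0.149 to 41.5 and 43.4 (6.78 ± 0.837, adjusted p = 0.000854). In iWAT 1 rose and 0 fell under ob/ob-Veh in each APC-like class, and 1 rose and 1 fell in progenitor-like and 0 rose and 1 fell in preadipocyte-like cells under ob/ob-Rosi. Over all iWAT genes 0.669% rose and 0.543% fell in progenitor-like and 0.356% and 0.365% in preadipocyte-like cells under ob/ob-Veh, and 1.63% and 1.27% and then 0.458% and 0.577% under ob/ob-Rosi, which applies to the iWAT receptor and dissociation counts as well. The gene that rose in iWAT progenitor-like cells under ob/ob-Rosi was Ankrd1, a nuclear ankyrin repeat protein, at 0.0 and 4.9 CPM under WT-Veh, 0.133 and 0.232 under ob/ob-Veh, and 4.67 and 9.93 under ob/ob-Rosi (5.48 ± 0.86, adjusted p = 0.0149). Of the 21 receptors and binding partners, 0 rose and 3 fell in each eWAT APC-like class under ob/ob-Veh (of 20 tested in preadipocyte-like and 18 in progenitor-like cells), and 3 rose in preadipocyte-like and 2 in progenitor-like cells under ob/ob-Rosi. Cd36, a thrombospondin receptor and fatty acid carrier, fell in preadipocyte-like cells from 274 and 214 to 51.0 and 69.9 CPM (-2.17 ± 0.284, adjusted p = 0.00129), though it also served as a preadipocyte marker here. Sdc1, a heparan sulfate proteoglycan, rose under ob/ob-Rosi from 10.8 and 13 to 59.2 and 119 (3.04 ± 0.349, adjusted p = 0.000606). In iWAT 1 receptor gene rose and 0 fell under ob/ob-Veh and 0 rose and 1 fell under ob/ob-Rosi in progenitor-like cells, and 0 passed in preadipocyte-like cells by edgeR, with 8 and 5 at an unadjusted p under 0.05. Dissociation response genes of iWAT gave 0 passes by edgeR under ob/ob-Veh (at an unadjusted p under 0.05, 7 in the progenitor-like class and 6 in the other) and 1 higher and 4 lower in progenitor-like and 0 higher and 1 lower in preadipocyte-like cells under ob/ob-Rosi. The all-gene counts at an unadjusted p under 0.05 given with the TGF-β list apply to both iWAT lists here.

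Across class and library sums, each gene had its own nearest neighbours. Over 74 eWAT sums and 10910 genes, Sparc was most like Igfbp7 (Pearson r of log2(CPM + 1) 0.967), Hspg2 (0.935) and Ppic (0.916). Postn was most like Oaf (0.915), Cygb (0.9) and Col4a2 (0.898), and Ctgf most like S100a16 (0.832). Thbs1 was most like G0s2 (0.718), Vcan (0.669) and Hp (0.643), lower values than for the others. In iWAT, over 56 sums and 10749 genes, the nearest were Ppic for Sparc (0.95), Tead1 for Postn (0.794), Cdr2l for Ctgf (0.823) and Hp for Thbs1 (0.784). Sums of a library share its depth and free RNA, and these values are descriptions across class and library sums, which are not independent.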

How the data were processed

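Stromal vascular cells of eWAT and iWAT were profiled in 12 droplet libraries. Per the labels, the authors made the UMI count matrices with bcl2fastq 2.19.1.403 and Cell Ranger 3.0.2 on mm10, and the deposited values are raw UMI counts per gene and cell with no normalization. Cells with 700 to 22000 UMIs, 200 to 6000 genes and at most 25% mitochondrial UMIs were kept, with a median of 1132 to 4961 UMIs per cell by library. Per depot, cells were clustered (scanpy 1.11.5, leidenalg 0.10.2, resolution 1) on variable genes without the listed genes and named from marker lists; the naming rule was adjusted after clusters were seen. A cluster of APC-like cells with macrophage genes (1151 cells in eWAT, 396 in iWAT) was left out. Doublets were kept in the main analysis.

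UMIs were summed per library and class with at least 20 cells in each library of a depot, filtered with filterByExpr, scaled by TMM and tested with edgeR 4.0.16 (R 4.3.3) by its quasi-likelihood test, all 6 libraries of a depot in 1 fit (3 residual degrees of freedom) and all 12 for the difference between depots (6). p-values were adjusted by Benjamini-Hochberg over all genes of a class. SE is the absolute log2 fold change over the square root of F. With 2 against 2 libraries an exact permutation test cannot go below p = 0.33, and p-values measure only the spread between these mice. A fit that leaves out 1 library assumes that the lone library varies like the others. The steps were tested on simulated data.

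Named were the 9 members, up to 4 passing genes per depot with the largest log2 fold change from each of 5 further lists, and the 3 genes most like Thbs1, Postn, Sparc and Ctgf. The members and lists were chosen with earlier results of these data known. For each result, 13 alternatives were run. Among them was DESeq2 1.42.0, fitted and adjusted over all genes passing the filter, with calls kept for the members only. The others included scalings, filters, cluster resolutions, doublets removed, thinned cells, a replicate block and libraries left out. Pooling the APC-like classes was added after seeing the data.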

Additional observations from a re-analysis of the deposited data

Results flagged for a closer look

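The 8 results here are listed because the effects in eWAT and iWAT differed by edgeR's test of the difference itself, each given as the eWAT effect minus the iWAT effect on the log2 scale. For Thbs2 in preadipocyte-like cells the difference was -3.13 for ob/ob-Veh against WT-Veh (adjusted p = 0.011) and 3.15 for ob/ob-Rosi against ob/ob-Veh (adjusted p = 0.0176), comparisons that share the ob/ob-Veh libraries. The first missed the threshold without eWAT ob/ob-Veh 1 (0.097), iWAT ob/ob-Veh 2 (0.0512) or iWAT WT-Veh 2 (0.0538). The second missed without eWAT ob/ob-Rosi 2 (0.0621), eWAT ob/ob-Veh 1 or 2 (0.124 and 0.0819), iWAT ob/ob-Rosi 2 (0.0608) or iWAT ob/ob-Veh 1 or 2 (0.0712 and 0.0621), and thinning the cells gave 0.216 and 0.275.

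For Nov in progenitor-like cells the differences were 2.87 (adjusted p = 0.0333) and -2.91 (adjusted p = 0.0287). The first missed without eWAT ob/ob-Veh 1 or 2 (0.0966 and 0.0708), eWAT WT-Veh 2 (0.16) or iWAT ob/ob-Veh 1 or 2 (0.178 and 0.088). The second missed without eWAT ob/ob-Rosi 1 or 2 (0.0521 and 0.129), eWAT ob/ob-Veh 1 or 2 (0.0999 and 0.0592), iWAT ob/ob-Rosi 2 (0.0516) or iWAT ob/ob-Veh 1 or 2 (0.158 and 0.0823). Finer clusters gave 0.105 and 0.0848. In pooled APC-like cells the Nov differences were 3.55 and -3.52 (adjusted p = 0.036 and 0.043).

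For Postn in progenitor-like cells the ob/ob-Rosi effect differed by 2.45 (adjusted p = 0.0181), which missed without eWAT ob/ob-Rosi 1 (0.0532), eWAT ob/ob-Veh 1 or 2 (0.11 and 0.069), iWAT ob/ob-Rosi 2 (0.0893) or iWAT ob/ob-Veh 1 (0.123), and with thinned cells (0.117). In PVM-like cells the ob/ob-Veh effects differed by -2.65 for Postn (adjusted p = 0.0357), -2.94 for Sparc (0.0123) and -4.53 for Thbs2 (0.0123). Postn missed without each of 9 libraries (0.055 to 0.192), those other than iWAT WT-Veh 1 and both of iWAT ob/ob-Rosi, and with doublets removed (0.0845) or thinned cells (0.102). Sparc missed without eWAT ob/ob-Veh 1 or 2 (0.074 and 0.0759), eWAT WT-Veh 1 (0.062) or iWAT ob/ob-Veh 1 (0.0724). Thbs2 missed without eWAT ob/ob-Veh 1 or 2 (0.074 and 0.0776), eWAT WT-Veh 1 (0.0971) or iWAT ob/ob-Veh 1 or 2 (0.0619 and 0.0532). The stromal markers in iWAT PVM-like cells were highest in the ob/ob-Veh libraries, and their part in these differences was not tested.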

How the results depend on the processing

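Counts of calls among the 9 genes are given in the order eWAT ob/ob-Veh against WT-Veh, eWAT ob/ob-Rosi against ob/ob-Veh, iWAT for the same 2 comparisons, and the 2 differences between depots, and stood at 25, 17, 9, 5, 5 and 3. No named value reversed under the alternatives run. Without a filter on low counts they were 43, 37, 21, 19, 21 and 12, and ob/ob-Rosi against WT-Veh had 4 in eWAT and 8 in iWAT in place of 0. DESeq2 gave 16 and 12 in iWAT, 10 and 6 for the differences, and 1 and 2 for ob/ob-Rosi against WT-Veh. Thinning cells to 700 UMIs gave 15 for the first and 2 and 1 for the differences. A minimum of 50 cells gave 3 for ob/ob-Rosi in iWAT, coarser clusters (Leiden resolution 0.5) gave 9 there and 1 against WT-Veh, listed genes among the clustering genes gave 3 for the first difference, and APC-like cells not split gave 1 for the second. Where not shown by the construction, the cause was not tested.

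Labels share replicate numbers 1 and 2 without naming a shared batch. With a replicate block the counts were 41, 31, 18, 16, 11 and 10, and ob/ob-Rosi against WT-Veh in eWAT had 2. Thbs1 in eWAT APC-like cells, higher in replicate 1 of each group as Ctgf, Cyr61, Nov and Fn1 were, then passed under ob/ob-Veh (-1.83, adjusted p = 0.00829 by edgeR). Same-numbered libraries deviated together with correlations of 0.119 to 0.354 in eWAT and, in iWAT, of 0.258 to 0.625 for WT-Veh with ob/ob-Rosi and -0.0219 to 0.125 otherwise.

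Leaving out 1 library gave 13 to 30, 8 to 25, 2 to 19, 0 to 20, 0 to 7 and 0 to 4, and 0 to 1 in eWAT and 0 to 6 in iWAT for ob/ob-Rosi against WT-Veh. Of the values of single genes, 288 kept and 144 lost their call without 1 library, and 39 kept and 17 lost it with thinned cells. Calls lost numbered 5 with doublets removed, 4 and 9 with coarser and finer clusters, 8 with listed genes among the clustering genes, 2 with library size only and 1 with the replicate block.

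Depth and numbers set the limits. There were 2 mice per group and 3 residual degrees of freedom, so the spread was estimated from few libraries. Classes of as few as 20 cells in a library have sparse sums. CPM counts molecules at the 3′ end and follows class composition. APC-like classes were supplied by different clusters in different groups, and 1 iWAT WT-Veh library held 373 APC-like cells.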
